A study of Mus musculus with 480 samples.

Results

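Bronchioalveolar stem cells (BASCs) of 1 mouse line were compared by how much of the club cell gene Scgb1a1 they held: 19 Scgb1a1-high cells against 34 Scgb1a1-low cells. Both sets were chosen by measured Scgb1a1 level, as CPM, the reads of a gene scaled to a total of 1000000 reads per cell. A high cell had 20000 CPM or more and a low cell had under 2000 CPM. All came from the line BASCs-Tracer, were annotated as BASCs and had at least 100000 reads. The line gave 80 more such cells between the limits, used only where they are named, and 5 BASCs with fewer reads, which were left out. The 53 cells compared were thus part of 160 cells of the line.

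The series held 480 single lung epithelial cells, 160 from each of 3 reporter lines, sorted one per well and read by single-cell RNA sequencing. BASCs-Tracer mice, from which every high and low cell came, carried Sftpc-DreER and Scgba1a1-CreER together with the reporter R26-RSR-LSL-tdtomato. In them tdTomato needs a Dre recombinase driven by Sftpc and also a Cre recombinase driven by Scgb1a1. The 2 lines used for reference were Scgb1a1-TD, with Scgba1a1-CreER and R26-tdtomato, and Sftpc-TD, with Sftpc-DreER and R26-RSR-tdtomato. The labels gave no animal, age, sex or dosing of the inducer, so the line counts as 1 sample. Cells of 1 sample are not replicates, and no test was made between the groups. Values are given per cell, with the 2 plates of the line, A1 and A2, side by side.

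BASCs sit at the junction where the last airway opens into the alveoli, and they carry products of both neighbours. Club cells of the airway secrete the secretoglobin Scgb1a1 and hold enzymes such as Cyp2f2 that oxidise inhaled chemicals. Alveolar type 2 (AT2) cells make surfactant, of which Sftpc is a protein component, and they also express class II molecules of the major histocompatibility complex (MHC), which present peptides to CD4 T cells.

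**Figure D1:**
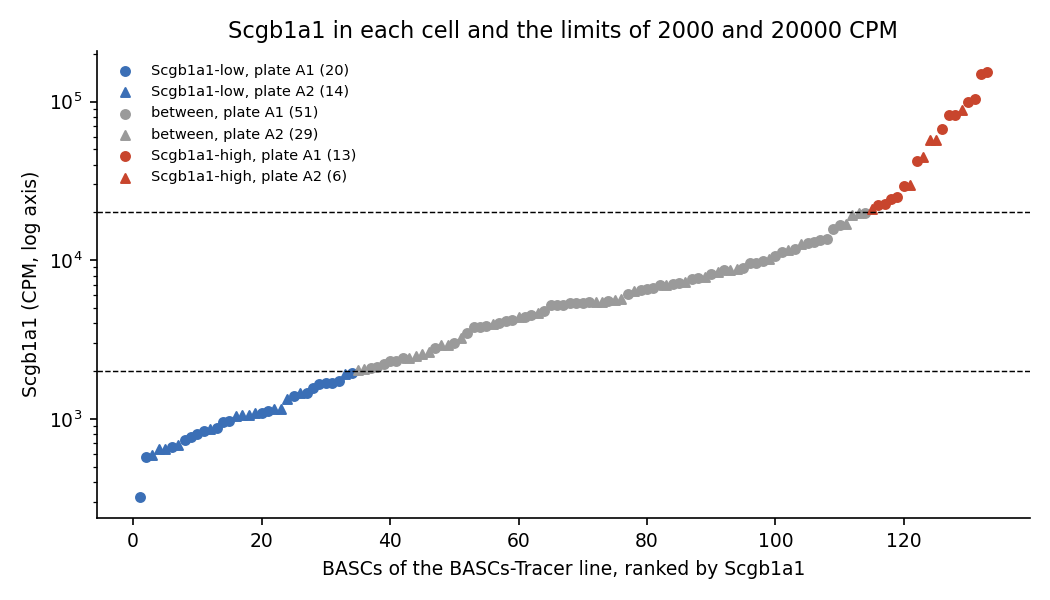
Scgb1a1 CPM on a log axis in each BASC of the BASCs-Tracer line with at least 100000 reads, ranked from lowest to highest, with circles for plate A1 and triangles for plate A2. The dashed lines are the limits of 2000 and 20000 CPM; the values run without a break through the lower limit, and both plates have cells at both ends.

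Scgb1a1 was a continuum in these cells. It ranged from 20870 to 153509 CPM in the high cells, with a median of 56808, and from 323.3 to 1947 CPM in the low cells, with a median of 1058. The 2 cells just inside the upper limit had 20870 and 22354 CPM, and the 2 just outside had 19914 and 19878 CPM. At the lower limit the nearest values were 1947 and 1929 CPM inside and 2033 and 2061 CPM outside. These values fixed the groups and carry no finding. High cells made up 14.3% of the BASCs with enough reads (exact binomial 95% interval 8.83% to 21.4%) and low cells 25.6% (18.4% to 33.8%). Plate A1 gave 13 high and 20 low cells of 84, and plate A2 gave 6 high and 14 low cells of 49.

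High cells held 212209 to 1823752 reads, with a median of 739936, and low cells 343080 to 3233511, with a median of 917833. On plate A1 the medians were 770111 and 907103 reads in high and low cells; on plate A2, where 6 high cells stood against 14 low cells, they were 677904 and 1074098, and each call also rests on that plate. After each cell was thinned to 100000 reads, the median number of genes with a read was 3201 in high cells and 2920 in low cells; without thinning it was 5145 and 4903. The median mitochondrial share was 2.49% and 3.06%. Sftpc was present in all cells of both groups: every high cell had at least 28754 CPM of Sftpc and every low cell at least 103638 CPM.

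For each gene the reads were summed over the cells of a group, and the log2 ratio of the pooled CPM plus 1 was taken, high over low. A gene counted as measured at 5 CPM or more in either pool and with a read in at least 20% of the cells of the higher pool. A gene under 5 CPM in either pool could thus be measured only where the other pool was higher. Of 8249 measured genes, 1780 were at least 2-fold higher in the high pool and 1736 at least 2-fold lower. The plates gave little common ground: 53.4% of measured genes had the same sign on both plates, and the Pearson correlation of the plate ratios over genes, which are not independent replicates, was 0.10. A gene was therefore called only where it passed 2-fold in the pool and in the same direction on each plate. This call took in 5.71% of the measured genes as higher and 11.2% as lower. With unequal numbers of cells the call is not symmetric: on plate A2, 9.10% of measured genes had no read in any of the 6 high cells, 1.35% had none in the 14 low cells, and the median ratio of measured genes was -0.74. With each set of pools centred on its median ratio, higher calls were 44.7% of all calls in place of 33.7%. No gene other than Scgb1a1 had every high cell above every low cell, or every high cell below.

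**Figure D2:**
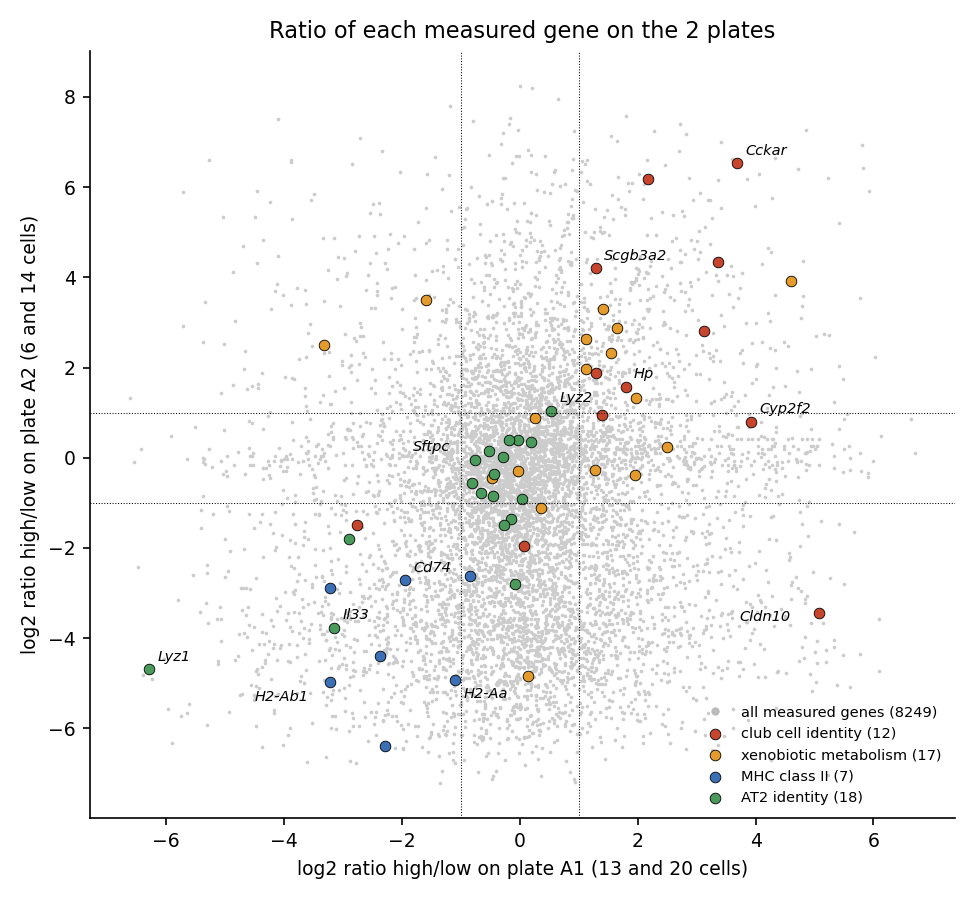
The log2 ratio of high over low cells for each of 8249 measured genes on plate A1 (x axis, 13 and 20 cells) and plate A2 (y axis, 6 and 14 cells), with 4 gene lists coloured and dotted lines at 2-fold. The grey cloud has little slope, with a correlation of 0.10, while most club cell and xenobiotic genes lie to the upper right and the MHC class II genes to the lower left.

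Most measured club cell genes were called higher in the high cells. Of 16 genes on the club cell identity list, which was chosen with earlier results of these data known, 12 were measured. Of these, 7 were called higher and 1 lower. The 12 had a median log2 ratio of 1.91 against -0.05 over all measured genes. Gabrp, Lypd2 and Sox2, among the 7, were measured only through the high pool and so could only be called higher. The summed level of the list had a median of 28063 CPM per high cell, 10871 CPM per cell between the limits and 8334 CPM per low cell. A large part of it was Cbr2, which was abundant in both groups and not called. The same sum had a median of 15513 CPM in AT2 cells of Sftpc-TD and 9198 CPM in those of the tracer line. In club cells of Scgb1a1-TD it was 112666 CPM. The 4 members not measured were Scgb3a1, at 4.9 CPM in both pools, and Chad, Krt15 and Upk3a, each under 1 CPM.

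Cyp2f2, the cytochrome P450 that marks club cells (chromosome 7: 27119909 to 27133660, GRCm38), ranged from 913 to 9123 CPM in the 19 high cells, with a median of 3016. In the 34 low cells it ranged from 46.01 to 11778 CPM, with a median of 120.8. All 19 high cells lay above the low median. Every low cell lay at 1065 CPM or less except the one in well A2-F1. That cell held 85.6% of the low-cell reads of Cyp2f2, beside 590 CPM of Scgb1a1, 2.08 CPM of Cd24a and 334.02 CPM of the AT2 lysozyme gene Lyz2, where the other low cells had 27278 CPM of Lyz2 or more. With it the pools held 3356 CPM (exact Poisson 95% interval 3327 to 3385, counting error only) and 1119 CPM (1108 to 1130), a log2 ratio of 1.58 that was 3.93 on plate A1 and 0.80 on plate A2 and so was not called. Without that cell the low pool held 175.7 CPM and the log2 ratio was 4.25, with the high pool 18.997-fold above.

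Hp, which encodes the haemoglobin-binding protein haptoglobin, ranged from 340 to 7572 CPM in high cells, with a median of 2633, and from 37.8 to 2326 CPM in low cells, with a median of 864. The ranges overlapped, yet 11 of 19 high cells lay above every low cell. The log2 ratio of the pools was 1.78, with 1.79 on plate A1 and 1.58 on plate A2. With limits of 10000 and 4000 CPM Hp was not called.

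Cckar, the receptor for the gut hormone cholecystokinin, was near the floor of most low cells. It ranged from 2.60 to 1140 CPM in high cells, with a median of 213.2, and from 0 to 352.3 CPM in low cells, with a median of 2.17. It reached 50 CPM in 18 of 19 high cells, 21 of 80 cells between the limits and 2 of 34 low cells. The pools held 279.6 CPM (271.2 to 288.1) and 11.6 CPM (10.5 to 12.8), a log2 ratio of 4.48.

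The other called members of the list were small or rested on few cells. Scgb3a2, a second secretoglobin, had 534 CPM against 74.4 CPM, but 1 high cell held 65.6% of the high-cell reads and the medians were 145.4 and 69.5 CPM. Aldh1a1, a retinal dehydrogenase, had pooled levels of 81.5 and 27.7 CPM. Gabrp, a GABA receptor subunit, had 32.9 and 1.49 CPM, and Lypd2 had 10.4 and 0.45 CPM. Sox2, a transcription factor of airway epithelium, had 27.8 and 0.08 CPM, with 90% of the high-cell reads in 1 cell. Cbr2, a carbonyl reductase abundant in both groups, had medians of 14728 and 5198 CPM and a log2 ratio of 1.02 that was 0.94 on plate A2, short of the limit. Cldn10, a claudin of tight junctions, was higher on plate A1 (5.07) and lower on plate A2 (-3.43), with 90.5% of its low-cell reads in 1 cell. Nupr1, a stress-induced chromatin protein, had a log2 ratio of -0.69 and was not called. Cyp2b10, another cytochrome P450, was called lower, at 133.5 CPM against 607 CPM.

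Some genes of xenobiotic metabolism were called higher. Of 22 on the list 17 were measured; 7 were called higher and none lower, with a median log2 ratio of 0.99. The quinone reductase Nqo1 (-4.11, with 98.9% of its low-cell reads in 1 cell) and the flavin monooxygenase Fmo1 (-1.94) were over 2-fold lower in the pool, but the plates differed in sign and neither was called. Aox3, an aldehyde oxidase, had a median of 472.1 CPM per high cell and 44.8 CPM per low cell, and 18 of 19 high cells lay above the low median. Por, which passes electrons to all microsomal P450 enzymes, had medians of 242.8 and 18.8 CPM. The glutathione transferases Gstm1, Gsta4 and Gsta3, which couple electrophiles to glutathione, had medians of 267.6, 143.6 and 51.9 CPM in high cells and of 17.1, 2.999 and 3.33 CPM in low cells. Gsto1, of the omega class, had the largest ratio of the list, 4.34, yet its median high cell held only 4.71 CPM; 8 of 19 high cells lay above every low cell. Fmo2, another flavin monooxygenase, had pooled levels of 286.4 and 63.5 CPM. Ranges overlapped for each of these 7 genes.

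Cd24a, a glycoprotein anchored in the membrane that is used as a surface marker to sort lung epithelial progenitors, was near 0 in most low cells and well above it in most high cells. It ranged from 17.5 to 1547 CPM in high cells, with a median of 406.8, and from 0 to 470.9 CPM in low cells, with a median of 4.90. All 19 high cells lay above the low median and 9 lay above every low cell. It reached 100 CPM in 16 of 19 high cells, 45 of 80 between the limits and 3 of 34 low cells, and all 14 low cells of plate A2 had 10.2 CPM or less. The pools held 555 CPM (543 to 567) and 34.98 CPM (33.1 to 36.98), a log2 ratio of 3.95. On the list of progenitor surface genes, 8 of 11 were measured and Cd24a was the only one called higher; Bmi1, a Polycomb subunit, was called lower at 1.52 and 8.45 CPM. Ly6a, which encodes Sca-1, had pooled levels of 132.03 and 188.2 CPM, a log2 ratio of -0.51 that was not called.

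For 3 of these genes, picked after their values were seen, joint counts over single cells were also taken. Cyp2f2 at 1000 CPM or more, Cd24a at 100 CPM or more and Cckar at 50 CPM or more were met jointly by 15 of 19 high cells, 6 of 80 cells between the limits and 0 of 34 low cells. A cell with none of the 3 was not seen among the high cells and was seen in 27 of 80 and in 28 of 34. Taken alone, the limits for Cyp2f2, Cd24a and Cckar were met by 18, 16 and 18 of 19 high cells. In low cells they were met by 2, 3 and 2 of 34. The joint counts in high and low cells thus follow largely from the single counts, and whether the genes go together was not tested.

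**Figure D3:**
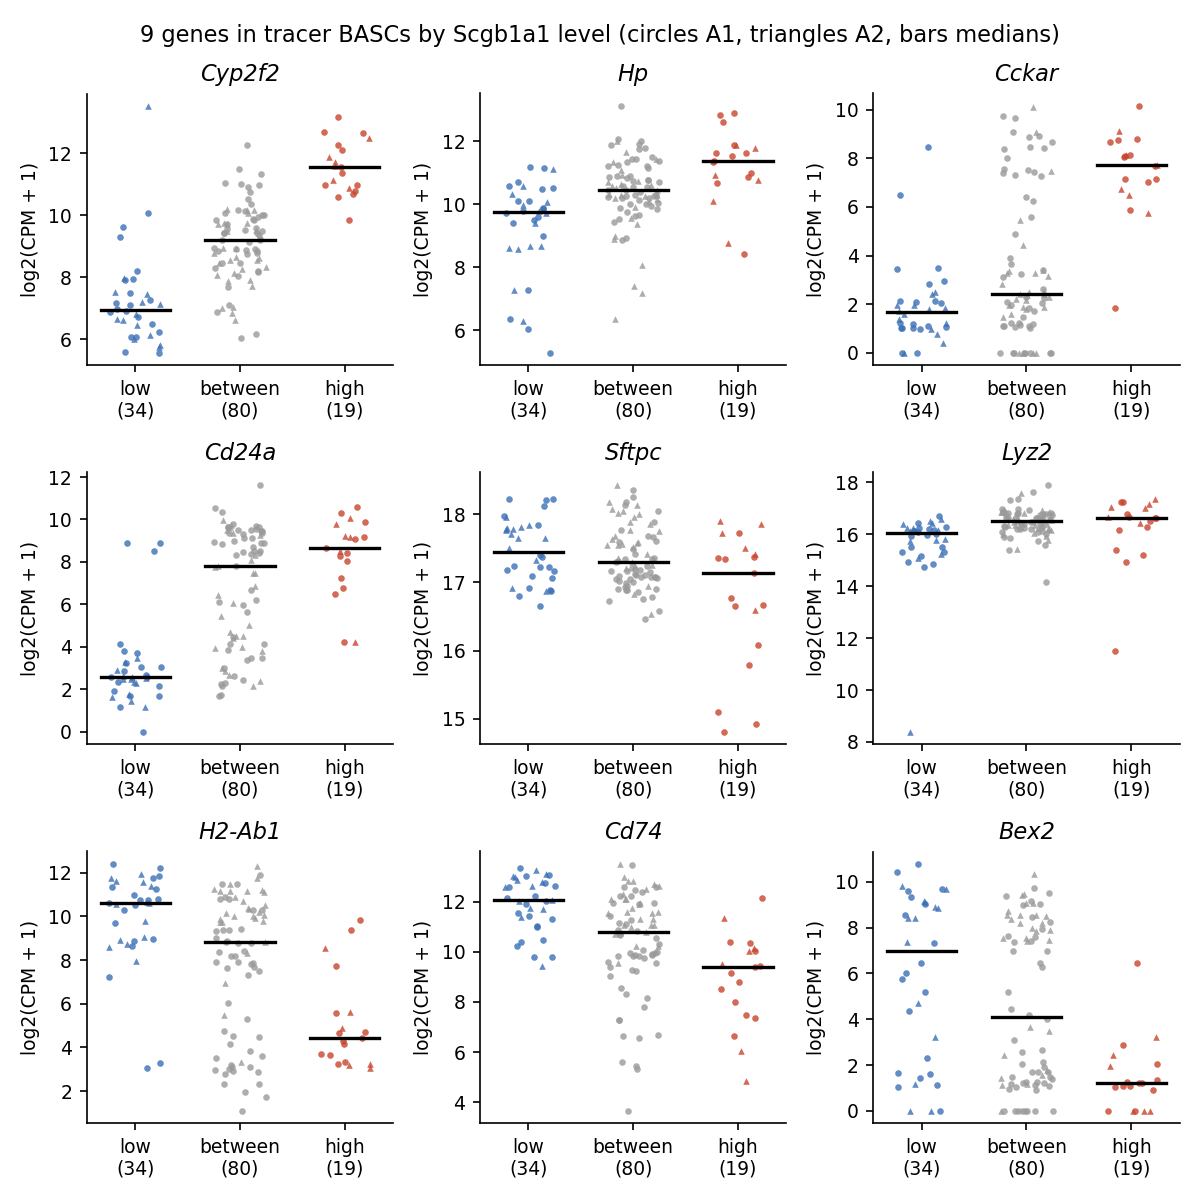
Level of 9 genes, as log2 of CPM plus 1, in each low (34), in-between (80) and high (19) cell, with circles for plate A1, triangles for plate A2 and a bar at each group's median. Cyp2f2, Cckar and Cd24a sit higher in high cells with 2 or 3 low cells apart, Sftpc and Lyz2 overlap, and H2-Ab1, Cd74 and Bex2 sit lower in most high cells.

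Beyond the lists, genes called higher were named by size where they also had 50 CPM or more in the higher pool, a read in at least 50% of its cells and no cell with over 50% of the reads. The 15 with the largest ratios had log2 ratios of 3.25 to 6.28. They were Cyp1b1, a cytochrome P450 that oxidises aromatic hydrocarbons and steroids; Bicd2, a dynein adaptor; Cckar; Tnfrsf21, a death receptor; Gsto1; Fam210b; Cd24a; Plpp3, a lipid phosphate phosphatase; Tbc1d30; Lpar3, a receptor for lysophosphatidic acid; Exoc4, an exocyst subunit; Fbxl18, an F-box protein; Kdr, a receptor for vascular endothelial growth factor; Col23a1, a transmembrane collagen; and Ccng2, a cyclin. Most of them were at a low level in the median high cell. Cckar and Cd24a were the 2 whose median high cell reached 50 CPM, and in 12 of the 15 that median was under 10 CPM. Without the cell holding most of its reads, Fam210b, Fbxl18, Kdr and Lpar3 were each no longer called, and Lpar3 turned to -0.94 without cells at 50 CPM or more of leukocyte markers. Kdr is also an endothelial gene; it was the 1 of 5 measured endothelial markers called, and its log2 ratio was 4.76 without the 4 wells with markers of other cells or with outlying Cyp2f2. Cyp1b1 had the largest ratio: high cells held 0 to 434.6 CPM with a median of 8.47, low cells held 0 to 3.79 CPM, and 12 of 19 high cells lay above every low cell. The antisense transcript B430010I23Rik, which the naming conditions leave out, had 0 to 628 CPM in high cells with a median of 39.9 and 0 to 11.6 CPM in low cells, with 12 of 19 high cells above every low cell. It was counted by a method whose use of strand is not given in the sources used here, so its reads cannot be told apart from those of the overlapping gene.

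Esr1 was called higher, and its reads need care. CreER and DreER are fusions of a recombinase with a ligand-binding part of the oestrogen receptor, and reads of a transgene and of Esr1 cannot be told apart in counts per gene. Esr1 ranged from 0 to 950 CPM in high cells, with a median of 110, and from 0 to 451.2 CPM in low cells, with a median of 1.42. A single low cell held 89.5% of the low-cell reads. Esr1 was not called without the high cell that held most of its high-cell reads. It reached 100 CPM in 10 of 19 high cells, 23 of 80 between the limits and 2 of 34 low cells.

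MHC class II genes were lower in the high cells. They encode the alpha and beta chains of the peptide-binding molecules (H2-Aa, H2-Ab1, H2-Eb1), the invariant chain that guides them through the cell (Cd74), the H2-DM pair that loads the peptide (H2-DMa, H2-DMb1) and their shared activator (Ciita). All 7 were measured, and 6 were called lower and none higher, with a median log2 ratio of -2.71. Ciita was measured only through the low pool and so could only be called lower. Their promoters are known for a shared set of short elements, the X, X2 and Y boxes, read by a protein complex on which Ciita acts. Because these genes were low together, 100 bases upstream of the start (positions -120 to -21) are shown for H2-Aa, H2-Eb1 and H2-DMb1, which held more than 1 of the core motifs; of the 7 members only these and H2-DMa were searched. The stretches are on the strand of the gene, from RefSeq in GRCm38.p6. Capitals mark the core letters GATTGG of the Y box, AGCAAC of the X box and TGATGA of the X2 box, found on either strand.
H2-Aa, chr17:34287844-34287943, minus strand: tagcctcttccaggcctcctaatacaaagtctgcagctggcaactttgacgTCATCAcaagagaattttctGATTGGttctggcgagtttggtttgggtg
H2-Eb1, chr17:34305747-34305846, plus strand: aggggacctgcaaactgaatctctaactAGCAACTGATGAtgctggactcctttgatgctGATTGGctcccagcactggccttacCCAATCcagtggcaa
H2-DMb1, chr17:34153071-34153170, plus strand: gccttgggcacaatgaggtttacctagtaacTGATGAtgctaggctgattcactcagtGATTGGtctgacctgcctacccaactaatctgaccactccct

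In these windows the Y core lay at -49 to -44 in H2-Aa, -60 to -55 in H2-Eb1 and -62 to -57 in H2-DMb1. The X2 core lay upstream of it in each, at -69 to -64 on the other strand in H2-Aa, -86 to -81 in H2-Eb1 and -89 to -84 in H2-DMb1. Only H2-Eb1 had the X core, directly before the X2 core, and it had a second Y core on the other strand at -35 to -30. Of 2 RefSeq starts of H2-DMa, 1 window held a Y core and the other held none of the 3. Across 32817 promoter windows of 300 bases, 16.1% held the Y core, 14.8% the X core, 12.4% the X2 core and 1.83% both Y and X2. A match describes letters and not a bound site, and whether these elements bear on the levels was not tested.

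H2-Ab1, the beta chain of the I-A molecule (chromosome 17: 34257689 to 34269419), ranged from 7.28 to 917 CPM in high cells, with a median of 20.9, and from 7.34 to 5429 CPM in low cells, with a median of 1581. All 19 high cells lay below the low median, and 15 of 19 were under 50 CPM, as were 2 of 34 low cells. The pools held 148.5 CPM (142.4 to 154.8) and 1832 CPM (1818 to 1846), a log2 ratio of -3.62.

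H2-Aa, the partner alpha chain, had a median of 13.8 CPM in high cells and 1023 CPM in low cells. Of its high-cell reads, 54.1% came from 1 cell, so the pooled log2 ratio of -1.84 is less extreme than the medians; it was -1.09 on plate A1 and -4.92 on plate A2. With Scgb1a1 left out of the totals H2-Aa was no longer called. H2-Eb1, the beta chain of I-E, had medians of 3.09 and 327.2 CPM and a log2 ratio of -2.71, with 64.5% of its high-cell reads in 1 cell.

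Cd74 was present in most cells of both groups. It ranged from 27.7 to 4489 CPM in high cells, with a median of 666, and from 682 to 10278 CPM in low cells, with a median of 4275. Thus 18 of 19 high cells lay below the low median, and the log2 ratio was -2.33. H2-DMa had 12.2 and 104.1 CPM in the pools, with 98.4% of the high-cell reads in 1 cell. H2-DMb1 had 50.4 and 146.5 CPM; its log2 ratio of -1.52 was -0.85 on plate A1 and it was not called. Ciita was scarce, at 1.98 and 20.7 CPM, with all of its high-cell reads in 1 cell and a read in 35.3% of low cells.

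The sum of H2-Aa, H2-Ab1 and H2-Eb1 showed how far single cells departed from the group. It was under 100 CPM in 10 of 19 high cells, 14 of 80 cells between the limits and 1 of 34 low cells, and it was at 1000 CPM or more in 2, 43 and 30 cells. The 2 high cells were those in wells A1-H4, with 3311 CPM, and A1-B8, with 2401 CPM. The low cell under 100 CPM, in well A1-H7, had 1947 CPM of Scgb1a1, just inside the limit, with 776 CPM of Cyp2f2 and 370 CPM of Cd24a. Of the 16 high cells with Cd24a at 100 CPM or more, 8 had under 100 CPM of this sum. Among cells between the limits this was so in 11 of 45. Of the high cells with Cd24a under 100 CPM, 2 had under 100 CPM of the sum and 1 did not. Between the limits these counts were 3 and 32.

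MHC class I and interferon genes were mostly not called. Of 17 listed, 10 were measured, with a median log2 ratio of -0.69. Of these 2 were called lower and none higher, where 11.2% of all measured genes were called lower. B2m, the light chain of class I, had 759 and 1324 CPM, H2-K1 had 698 and 1163 CPM and H2-D1 had 804 and 1251 CPM; none of the 3 was called. The immunoproteasome subunit Psmb8 was called lower, at 16.3 and 34.2 CPM.

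AT2 genes were largely alike. All 18 on the list were measured, and the median log2 ratio was -0.46. Of them 3 were called lower and none higher, where 11.2% of all measured genes were called lower. So few calls do not set the list apart from that share. Sftpc (chromosome 14: 70520949 to 70524081) ranged from 28754 to 245397 CPM in high cells, with a median of 143618, and from 103638 to 305543 CPM in low cells, with a median of 179187. The ranges overlapped over most of their length, and the log2 ratio of -0.48 was -0.76 on plate A1 and -0.04 on plate A2. Lyz2, the lysozyme of AT2 cells and macrophages, was higher in the high pool, at 102291 against 62091 CPM, and 7 of 19 high cells lay above every low cell; its log2 ratio of 0.72 was under the limit. Slc34a2, the phosphate carrier of AT2 cells, had 9040 and 7892 CPM, and the lipid transporter of lamellar bodies, Abca3, had 272.7 and 304.3 CPM. The surfactant genes Sftpa1, Sftpb and Sftpd, which club cells share, had log2 ratios of -0.36, 0.09 and -0.60, and none was called.

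The 3 AT2 genes called lower differed in how they were spread. Il33, which encodes an alarmin cytokine kept in the nucleus, ranged from 2.70 to 348.5 CPM in high cells, with a median of 12.8, and from 1.26 to 4906 CPM in low cells, with a median of 501; all 19 high cells lay below the low median. Like Hp, Il33 was not called with the wider limits. Fabp5, a fatty acid binding protein, had medians of 6.38 and 245.2 CPM. Lyz1, the second lysozyme gene, had 71.4 CPM against 3695 CPM in the pools, a log2 ratio of -5.67, yet the medians were 25.1 CPM in high cells and 20.5 CPM in low cells. Cells with 1000 CPM or more of Lyz1 numbered 1 of 19, 3 of 80 and 4 of 34, so the pooled ratio rests on 4 low cells. Lyz1 and Lyz2 are near-identical neighbours on chromosome 10, and reads could be split between them.

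**Figure D4:**
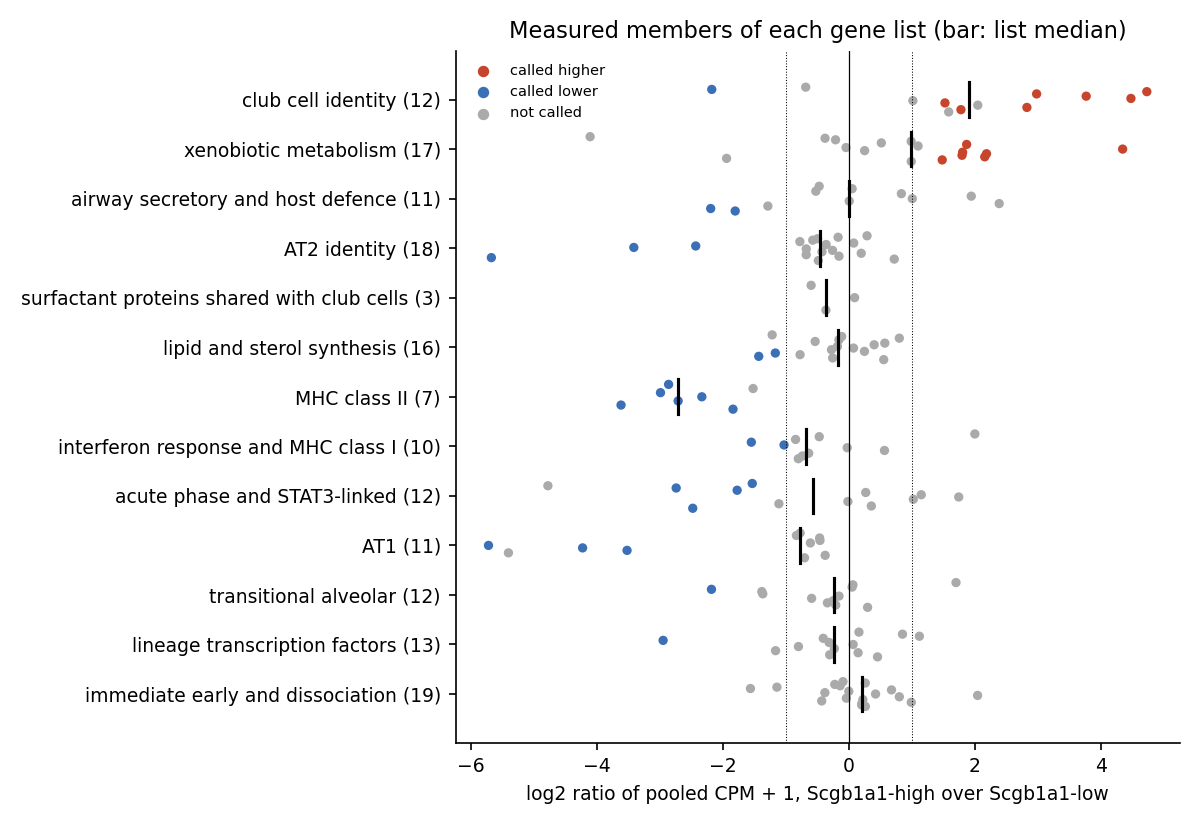
The log2 ratio of pooled CPM plus 1, high over low, for each measured member of 13 gene lists, with red for genes called higher, blue for genes called lower and a bar at each list's median. The club cell list has its median at 1.91 and MHC class II at -2.71, while the AT2 list sits at -0.46 with 3 called members far to the left.

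By the same conditions, the 15 genes called lower with the largest ratios ran from -5.80 to -4.15: Fabp12, a fatty acid binding protein; Tspan8, a tetraspanin; Lyz1; Tinag, a matrix glycoprotein; Man1a, a Golgi mannosidase; Bex2; Prcd; Cald1, an actin-binding protein; Ndnf, a secreted factor; Ehd2, of caveolae; Ptpn11, a tyrosine phosphatase; Fmr1, an RNA-binding protein; Bex4; Ecpas, of the proteasome; and Lima1, an actin-binding protein. Again most were at a low level in the median cell: Bex2 and Bex4 were the 2 whose median low cell reached 50 CPM, and in 9 of the 15 it was under 10 CPM. Bex2, of a small family of X-linked genes, ranged from 0 to 86.5 CPM in high cells, with a median of 1.29, and from 0 to 1759 CPM in low cells, with a median of 124.4. It reached 50 CPM in 1 of 19 high cells, 37 of 80 between the limits and 20 of 34 low cells. Fabp12 had at most 8.77 CPM in any high cell and a median of 23.7 CPM in low cells, with a highest value of 627. Tinag had at most 8.77 CPM in high cells and a median of 41.8 CPM in low cells.

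In lists of other functions few members were called. Calls in these and all lists above are to be read against the 5.71% higher and 11.2% lower of all measured genes. A list with 1 or 2 calls is near that background. Members named here were chosen after their values were seen. Lipid and sterol synthesis had 16 of 17 genes measured, 2 called lower and a median log2 ratio of -0.17. The 2 were Scd1, the stearoyl-CoA desaturase, with medians of 2094 and 6003 CPM, and Elovl1, a fatty acid elongase, with medians of 372.4 and 817 CPM; Scd1 was not called with Scgb1a1 left out of the totals. Among 12 of 14 measured acute phase and STAT3-linked genes, 4 were called lower: the glycoprotein Lrg1, with pooled levels of 346.5 and 1935 CPM, the chemokines Cxcl1 and Cxcl5, and Orm1. Stat3 itself had 472.03 and 212.4 CPM and was not called. The airway secretory and host defence list had 11 of 20 measured, with Pigr, the receptor that carries IgA across epithelium, and Lcn2, an iron-sequestering lipocalin, called lower and a median of 0.00. Its mucin Muc1 had 1290 and 1285 CPM.

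AT1 genes, of the thin gas-exchange cell, had 11 of 13 measured, with Cav1, Rtkn2 and Igfbp2 called lower and a median of -0.77; Ager, the most abundant, had 1362 and 2220 CPM and was not called. For transitional alveolar genes 12 of 14 were measured and Areg was called lower, with a median of -0.23. Lineage transcription factors had 13 of 17 measured and Foxp2 called lower, with a median of -0.23. Nkx2-1, the master factor of lung epithelium, had 358.6 and 261.4 CPM. Immediate early genes, which respond to cell dissociation, had all 19 measured and none called, with a median of 0.20; Fos had medians of 2468 and 2485 CPM. Of 14 proliferation genes 4 were measured, and Mki67 had under 0.1 CPM in both pools. Ccnd1 was called higher, at 164.1 and 62.9 CPM, with medians of 9.27 and 2.78 CPM. In the Notch list 4 of 12 were measured and none was called, in the Wnt list 8 of 16 with none called, and in the FGF list 7 of 10 with the receptor Fgfr3 called higher.

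The 80 cells between the limits did not enter the comparison, and they show whether levels followed Scgb1a1 there. Across the 19, 80 and 34 cells together, the 10 genes most like Scgb1a1 by Spearman's rho, out of 3864 with a read in at least 50% of cells, were Cyp2f2 (0.74), Cd24a (0.67), Cckar (0.53), Hp (0.50), Esr1 (0.49), Lyz2 (0.45), B430010I23Rik (0.42), Actb (0.41), Cbr2 (0.39) and Wfdc2 (0.38). The cells share libraries made on 2 plates and the same scaling, and the values are given as a description. Over the 80 cells alone, rho was 0.49 for Cd24a, 0.40 for Cyp2f2, 0.40 for Actb, 0.29 for Cckar and 0.20 for Hp. At the other end of the order stood H2-Ab1 (-0.56), Cd74 (-0.54), H2-Aa (-0.44), H2-Eb1 (-0.42) and Bex2 (-0.36), which over the 80 cells had -0.38, -0.26, -0.35, -0.29 and -0.21. The median sum of H2-Aa, H2-Ab1 and H2-Eb1 per cell was 61.4 CPM in high cells, 1472 CPM between the limits and 2911 CPM in low cells.

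BASCs of the single-recombinase lines, which played no part in choosing the groups, were described in the same way. Over 37 BASCs of Scgb1a1-TD, rho with Scgb1a1 was 0.69 for Cyp2f2, 0.56 for Cd24a, 0.50 for Hp, 0.41 for Cckar, -0.59 for Cd74, -0.50 for H2-Aa and -0.39 for H2-Ab1. None of the 37 reached 20000 CPM of Scgb1a1, the highest being 19981 CPM, and 19 were under 2000 CPM. Over 11 BASCs of Sftpc-TD, rho was 0.60 for Cyp2f2, 0.69 for Cd24a, 0.65 for Hp and 0.27 for Cckar. In the same cells it was -0.25 for Cd74, -0.47 for H2-Aa and -0.43 for H2-Ab1. Bex2 had -0.12 in Scgb1a1-TD and -0.34 in Sftpc-TD. Lyz2, at 0.45 in the tracer line, had 0.24 in Scgb1a1-TD and -0.18 in Sftpc-TD. Of these 11, 2 were above the upper limit, both on the same plate, and 5 below the lower, too few for pools.

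The 2 high cells of Sftpc-TD had 2733 and 3971 CPM of Cyp2f2, and the 5 low cells had 0 to 57.3 CPM. Their Cd24a was 447.9 and 529.6 CPM against 0 to 3.37 CPM. Bex2 was 0 and 2.02 CPM against 52.3 to 354.02 CPM, and Cd74 was 160.4 and 343.6 CPM against 475.2 to 12675 CPM. For Hp, at 1451 and 2719 CPM against 421.6 to 1525 CPM, the ranges overlapped, and for Cckar, at 0 and 113.6 CPM against 0 to 0.81 CPM, 1 of the 2 high cells had no read. H2-Ab1, at 0 and 53.5 CPM against 3.96 to 9582 CPM, and Sftpc, at 147494 and 167635 CPM against 64715 to 224568 CPM, overlapped too. Esr1 had no read in any of the 11 cells.

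Set beside annotated club cells and AT2 cells, the high cells lay partway for some genes and at one end for others. In the pool of 94 club cells of Scgb1a1-TD, Scgb1a1 stood at 258577 CPM, 3.95-fold above the high pool, Cyp2f2 at 32270 CPM, 9.61-fold above, and Scgb3a2 at 22575 CPM, 42.2-fold above. Cckar, at 496 CPM, was 1.77-fold above. Cd24a, at 454.9 CPM, and Aox3, at 901 CPM, were close to the high pool's 555 and 897 CPM. In 13 club cells of the tracer line itself, Cyp2f2 was 23853 CPM, Cckar 302.1 CPM and Cd24a 372.7 CPM. AT2 genes were lower in club cells: Sftpc was 4048 CPM in those of Scgb1a1-TD and 14133 CPM in those of the tracer line, against 135956 CPM in the high pool, 33.6-fold and 9.62-fold above them. Lyz2 was 1463 and 2576 CPM, against 102291 CPM.

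The low cells lay near AT2 cells for several genes, but not for all. The summed xenobiotic list had a median of 2249 CPM per low cell. It was 3231 CPM in AT2 cells of Sftpc-TD and 2882 CPM in those of the tracer line. In the AT2 cells of Sftpc-TD, Scgb1a1 stood at 1285 CPM, Cckar at 11.7 CPM, Cd24a at 18.3 CPM and Bex2 at 333.5 CPM, where the low pool had 1046, 11.6, 34.98 and 307.4 CPM. MHC class II genes in the low pool were above those AT2 cells, with H2-Ab1 at 1832 against 556 CPM, and nearer to the 6 AT2 cells of the tracer line, at 1201 CPM. The high pool's 148.5 CPM of H2-Ab1 lay between the AT2 cells and the club cells, at 12.4 CPM in Scgb1a1-TD and 46.04 CPM in the tracer line. Plate A2 held 32 Scgb1a1-TD cells beside 64 tracer cells, and the other cells of both reference lines were on plates without tracer cells. Whether plate bears on these levels was not tested.

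**Figure D5:**
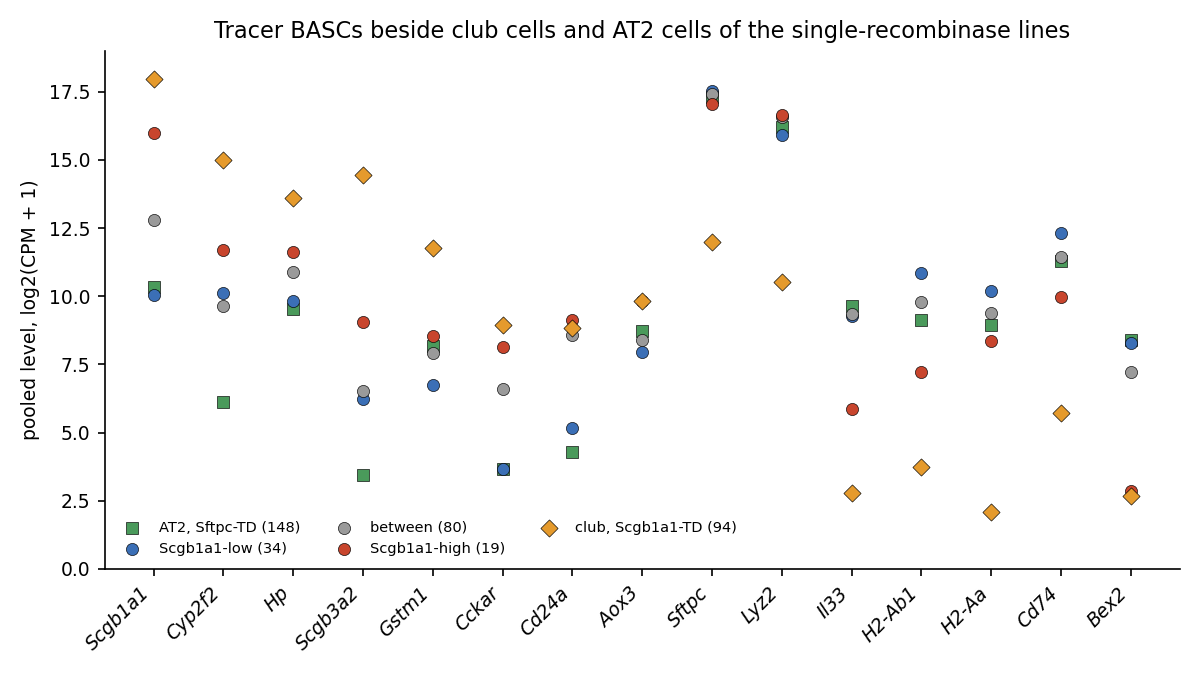
Pooled level of 15 genes, as log2 of CPM plus 1, in the low, in-between and high tracer BASCs (circles), in AT2 cells of Sftpc-TD (squares) and in 94 club cells of Scgb1a1-TD (diamonds). High cells sit between low cells and club cells for Cyp2f2, Hp and Scgb3a2, at the club level for Cd24a, and with AT2 cells for Sftpc and Lyz2.

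Markers of other cell types had low medians and reached higher sums in part of the wells. Basal, neuroendocrine and erythroid lists had no measured gene, and of 12 ciliated cell genes 2 were measured, with Tppp3 called lower at 12.6 against 93.1 CPM. The pan-leukocyte list of 8 genes summed to 0.73 to 2705 CPM in high cells, with a median of 30.1, and 0 to 574 CPM in low cells, with a median of 11.3. Lcp1, an actin-bundling protein, was at 50 CPM or more in 8 high and 13 low cells, and it made up 126.2 of 288.8 CPM of the list in the high pool and 104.9 of 112.1 CPM in the low pool. Apart from Lcp1, each of the 8 genes reached 50 CPM in at most 1 high and 1 low cell; Ptprc, Cd52, Coro1a, Laptm5 and Cd53 did so in no low cell. The high cell was the same for all 7 and, in well A1-B8, also held 2876 CPM of endothelial genes and the most genes of any high cell, 6591. Sums of 50 CPM or more were found in 5 high and 9 low cells for endothelial genes, in 6 and 13 for ciliated genes and in 6 and 13 for alveolar macrophage genes. The macrophage sum had medians of 2.09 and 4.46 CPM. Of its markers, Mrc1, Siglecf, Ear2 and Msr1 had no read in any high or low cell. Marco and Ear1 had none in high cells but had reads in low cells. The part of these marker reads in the results was not tested. The high cell in A1-D3 held 1683 CPM of mesenchymal genes and the low cell in A1-H10 held 2600 CPM of endothelial genes. Without these 3 cells and the cell in A2-F1, 6.09% of measured genes were called higher and 13.2% lower, and MHC class II kept 6 called lower with a median log2 ratio of -4.01. The club cell list then had 8 called higher and a median of 2.60. With the wider limits of 10000 and 4000 CPM instead, 3 of its 13 measured genes were called higher. Without the 4 cells above, 56 of the 59 called genes given by value in this comparison kept their call. Aldh1a1, Gsta3 and Scd1 did not. Without the cells at 50 CPM or more of pan-leukocyte markers, 45 of the 59 kept their call. That setting left 10 high and 20 low cells, with most of the others left out through Lcp1. Reads of Xist at 10 CPM or more were in 0 of 19 high, 5 of 80 in-between and 3 of 34 low cells, and reads of Y-linked genes at that level in 15, 60 and 23 cells. Both kinds were at that level in 0 high, 1 in-between and 2 low cells. How the groups draw on animals cannot be told apart from the group itself, since no animal is named.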

How the data were processed

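Reads per gene were counted in single sorted lung cells by the authors and deposited as whole-number counts, 1 column per cell. The submitters' processing notes name HISAT2, HTSeq and the build GRCm38, without versions; the strand setting is not given in the sources used here. Genes were named by matching their Ensembl identifiers, of which 53274 of 53379 had a symbol. The 105 without one held 0.00513% of reads; these and 159 that share a symbol stayed in the totals but were not compared. Labels name no animals, so no test was made.

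CPM was the count times 1000000 over the cell's total. A group's level was its summed reads over its summed totals, with an exact Poisson 95% interval. Reads carry no molecular identifiers, so intervals cover counting error only. Log2 ratios used 1 added CPM; 2-fold in the pool and on both plates made a call. Named genes were the 15 largest called per direction under the conditions given, the 4 highest members of each list and the 10 most like Scgb1a1. Other genes named from lists were chosen after their values were seen. The members and lists were chosen with earlier results of these data known. Alternatives covered scaling, the added CPM, filters, limits, plates and left-out cells. The scripts were tested on simulated data. Promoters are from RefSeq; those of Scgb1a1, Hp, Cd24a and H2-Ab1 were not used here. Python 3.11.15, numpy 2.4.6, pandas 2.3.3, scipy 1.17.1 and matplotlib 3.10.9 were used. The values of 1 listed gene are not reported here.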

Additional observations from a re-analysis of the deposited data

Results flagged for a closer look

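Among 13 genes looked at in the 6 high cells of plate A2, 4 had a highest cell far from the next. Its gap to the next, over the whole range, passed Dixon's 95% critical value for 6 values. That value assumes normally distributed values, and the CPM of these cells is strongly skewed. How often chance alone would give a flag here is therefore not known. The cell in well A2-A5 had 950 CPM of Esr1, with the next cell at 246.8 CPM and 57071 CPM of Scgb1a1 in the cell itself. The cell in well A2-C7, with 29876 CPM of Scgb1a1, had 561 CPM of H2-Aa, where the next cell had 88.9 CPM, and 334.6 CPM of H2-Eb1, where the next had 5.64 CPM. The cell in well A2-A7, just inside the limit with 20870 CPM of Scgb1a1, had 375.5 CPM of H2-Ab1, where the next had 48.3 CPM.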

How the results depend on the processing

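A value was taken to move when it shifted by more than 1.5-fold. The share of measured genes called moved with 10 CPM added (2.92% higher, 5.90% lower), without a filter on low genes (3.12% and 7.17%), on plate A1 alone (25.8% and 22.3%) and on plate A2 alone (20.1% and 51.4%), where the call needs 1 plate only. It was 6.70% lower with limits of 10000 and 4000 CPM, 8.61% higher with 40000 and 1000 CPM, and 2.58% higher without the cell holding most reads of each gene, when 37.6% of the calls higher and 53.02% of those lower were kept. Of 59 called genes given by value, 13 lost the call there (among them Esr1, Gstm1, Por and Sox2). With limits of 10000 and 4000 CPM 18 did (among them Hp, Il33, Lyz1, Gstm1, Gsta4 and Scd1). Without the cells at 50 CPM or more of leukocyte markers, which left 10 high and 20 low cells, 14 did (among them Esr1, Lyz1 and Scd1). Club cell genes called higher ran from 3 of 13 measured (limits of 10000 and 4000 CPM) to 9 of 13 (mean CPM over cells). MHC class II genes called lower ran from 4 of 7 (limits of 40000 and 1000 CPM) to 7 of 7 (mean CPM over cells). Xenobiotic genes called higher ran from 4 of 17 (limits of 10000 and 4000 CPM) to 10 of 17 (plate A1 alone). Median log2 ratios on plate A2 alone were 1.65 (xenobiotic), -1.66 (airway secretory), -0.92 (lipid), -4.39 (MHC class II), -1.81 (interferon), 0.71 (acute phase), -1.57 (AT1), -1.39 (transitional), 0.76 (Wnt), -1.87 (FGF) and 1.32 (endothelial). With limits of 10000 and 4000 CPM they were 1.24 (club), -1.91 (MHC class II) and 0.11 (acute phase), and with 40000 and 1000 CPM -0.63 (FGF). Other settings were chosen after seeing the data: without the cell in A2-F1 the club list had 2.76, and without that cell and those in A1-B8, A1-D3 and A1-H10 it had 2.60, with -4.01 for MHC class II, -1.49 for acute phase and -3.70 for endothelial genes. Without cells at 50 CPM or more of pan-leukocyte markers MHC class II had -3.87, acute phase -1.75 and endothelial -4.69. The endothelial median was 2.43 as a mean over cells, 2.31 on plate A1 and -0.52 without the top cell. Signs turned for Kdm5d (-0.40) and Nqo1 (0.14) on plate A1, for Cldn10 (-3.43), Fmo1 (2.51), Nkd1 (0.60) and Notch2 (-0.26) on plate A2, for Nqo1 (0.13) without the top cell, and for Ccnd1 (-0.24) and Lpar3 (-0.94) without the leukocyte-marker cells. The cause was not tested. No paired analysis was possible because the result comes from no test.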
